A study of Mus musculus with 4 samples.

Results

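The genes described here are the Wnt ligands, their receptors and their secreted inhibitors, 41 of the 21779 protein-coding genes placed on the mouse chromosomes. They are 19 Wnt ligand genes, 15 receptor genes (Fzd1 to Fzd10, Lrp5, Lrp6, Ror1, Ror2 and Ryk) and 7 inhibitor genes (Sfrp1, Sfrp2, Sfrp4, Sfrp5, Dkk1, Dkk2 and Dkk3). They were chosen by gene family, with earlier results of these data known. Dkk4 and Frzb are counted among 95 further pathway genes described below, and had no peak assigned. Genome occupancy of HOXA5, a homeodomain transcription factor of the HOXA cluster, was measured around them by chromatin immunoprecipitation and sequencing (ChIP-seq) in mouse embryonic lung. The group used here is 2 anti-FLAG immunoprecipitates, replicates 1 and 2, from lungs of E15.5 embryos (a day in mid to late gestation) of genotype Hoxa5FLAG/FLAG, in which both copies of the endogenous gene carry the epitope. The tag follows the gene's own expression, so the lists cover whatever lung cells make HOXA5, and a peak list cannot check a tissue by its markers. The titles also carry the abbreviation wt. The labels do not say how many embryos were pooled or whether the replicates came from separate litters, so their agreement may be technical in part. The 2 inputs and untagged lungs were not analysed here, and enrichment seen without the tag cannot be told apart from HOXA5 binding.

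Wnt proteins are secreted, lipid-modified signals. In the beta-catenin pathway they bind a Frizzled receptor together with the coreceptor LRP5 or LRP6. ROR1, ROR2 and RYK are transmembrane proteins related to receptor tyrosine kinases that bind Wnts such as WNT5A and act mostly outside that pathway, for example in the orientation of cells within a tissue. Secreted frizzled-related proteins (Sfrp) bind Wnts outside the cell, and DKK1 and DKK2 bind LRP5 and LRP6. In the embryonic lung WNT2 and WNT2B come from the mesenchyme and WNT7B from the epithelium.

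A peak was counted for a gene when its summit lay inside the annotated span of the gene, or within 100 kb with that gene as the nearest protein-coding one. It was called shared when the peaks of both lists overlapped by at least 1 bp. HOXA5-FLAG peaks shared by both replicates were found at 4 of the 41 genes (9.76%), which were Ror1 with 3, Ror2 with 2, and Ryk and Wnt10a with 1 each. Over all protein-coding genes the share was 5.97%. The receptors with a shared peak were all of the ROR and RYK kind. None of the 10 Frizzled genes had a peak in either list, against 11.7% of all protein-coding genes, so 0 of 10 is not set apart from the rest. At Ror1, Ror2 and Ryk the summits lay inside the gene, which is so for 3.25% of all protein-coding genes. In all, 11 of the 4289 replicate 1 peaks, 8 of the 2832 replicate 2 peaks and 7 of the 2175 shared peaks belonged to these genes. The study has 1 condition, so the counts are descriptions beside the share over all genes, with no test.

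The starts of Ror1, Ror2 and Ryk are printed first, because these are the receptor genes with shared peaks inside them and a reader may look for HOX letters at their promoters. Each line gives the 250 bases before the annotated start, 5′ to 3′ along the gene, from RefSeq on GRCm38.p6, the mm10 assembly. They are chr4:100095541-100095790 on the plus strand, chr13:53286125-53286374 on the minus strand and chr9:102834670-102834919 on the plus strand. Capitals mark TAAT, the core letters bound by many homeodomain proteins, on either strand.
Ror1: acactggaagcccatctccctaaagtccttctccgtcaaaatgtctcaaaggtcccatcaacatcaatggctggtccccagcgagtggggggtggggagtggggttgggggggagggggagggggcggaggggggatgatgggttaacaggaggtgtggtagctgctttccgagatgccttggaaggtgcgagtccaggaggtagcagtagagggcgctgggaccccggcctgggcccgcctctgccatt
Ror2: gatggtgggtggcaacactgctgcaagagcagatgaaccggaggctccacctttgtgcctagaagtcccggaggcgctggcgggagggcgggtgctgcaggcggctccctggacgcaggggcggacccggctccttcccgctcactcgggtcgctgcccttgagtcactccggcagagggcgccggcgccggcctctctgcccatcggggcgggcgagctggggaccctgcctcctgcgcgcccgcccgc
Ryk: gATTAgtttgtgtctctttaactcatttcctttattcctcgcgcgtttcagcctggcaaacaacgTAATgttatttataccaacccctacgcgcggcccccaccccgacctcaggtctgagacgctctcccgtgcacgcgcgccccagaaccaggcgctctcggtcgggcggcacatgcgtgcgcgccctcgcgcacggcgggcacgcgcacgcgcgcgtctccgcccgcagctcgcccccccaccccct

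The Ror1 and Ror2 windows held no TAAT, and the Ryk window held 2, starting 249 and 185 bases before the start. These stretches are rich in G and C (62.4% in Ror1, 73.2% in Ror2 and 65.2% in Ryk). No peak of either list touched the 300-base promoter window of a member, for the 28 members (31 windows) that the promoter table holds. Over all 32841 windows 0.384% were touched by a replicate 1 peak and 0.167% by a replicate 2 peak, so 0 of 31 is not set apart from the rest. TAAT was present in 9 of the 31 upstream stretches of members against 54.9% of all, with a median G and C content of 68.0% against 52.4%. The part of base composition in that difference was not tested. TGATNNAT, the letters of a HOX protein bound with PBX, was searched on both strands too and was in 0 of the 31 and 7.69% of all. Its forms TGATTGAT, TGATTTAT and TGATTAAT, which it includes, were in 0.67%, 0.837% and 0.633% of all windows. The sequence under the peaks themselves was not used here.

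Ror1 encodes a receptor that is expressed mainly in embryos. The gene spans 349 kb on chromosome 4 (100095791 to 100444806, mm10, plus strand), and its 4 replicate 1 peaks were spread over nearly all of it. The peak nearest to the start, at 100101733 to 100102406, lay 6.31 kb into the gene. Its fold enrichment at the summit, a value of the authors' peak caller for a peak in its own list, was 7.02 in replicate 1 and 5.65 in replicate 2, with a −log10 q of 44.5 and 30.0. Both values stood high in their lists, at the 87.5th and 89.8th percentile of fold. The replicate summits were 9 bp apart.

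Farther along Ror1, a shared peak at 100312021 to 100312423 lay 217 kb from the start, with folds of 5.25 and 3.04 in replicates 1 and 2. The last one, at 100435373 to 100436176, lay 9.30 kb before the end of the gene and had folds of 5.10 and 3.48. In both, the replicate 2 fold stood lower in its list (percentiles 37.8 and 54.1) than the replicate 1 fold did in the other (75.0 and 73.5), while the summits agreed to within 2 bp. A further peak, 121 kb from the start (100216606 to 100216944), was found in replicate 1 alone. At 5.85-fold and a −log10 q of 28.8 it was above those 2 shared peaks of the same list. Neighbouring replicate 1 summits in Ror1 were 95.5 to 123 kb apart.

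Ror2 encodes the paralogous receptor, known for its role in cartilage and limb growth. It spans 177 kb on chromosome 13 (53109317 to 53286124, minus strand) and held the most enriched peak of the 41 genes in each list. That peak, at 53119851 to 53120227 in replicate 1, had folds of 7.64 and 7.55 in replicates 1 and 2, with a −log10 q of 60.3 and 45.1. It stood at the 90.1st and 95.2nd percentile of fold and was 238th of the 2175 shared peaks by mean rank of −log10 q. It lay near the far end of the gene, 166 kb from the start and 10.7 kb from the end.

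The other shared peak of Ror2 was weak. It lay 23.3 kb from the start (53262579 to 53263224 in replicate 1), with a fold of 4.18 in replicate 1 and of 2.79 in replicate 2, where its −log10 q was 4.91. The summits were 74 bp apart, the widest gap among the 7 shared peaks. With a −log10 q of at least 5 in both lists, or an overlap of at least 50% of both peaks, Ror2 had 1 shared peak. Between the 2, a replicate 1 peak with no partner at 53226486 to 53226773 had 4.75-fold enrichment and a −log10 q of 23.8. As in Ror1, an unpartnered peak was thus above a shared one in the replicate 1 list.

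**Figure D1:**
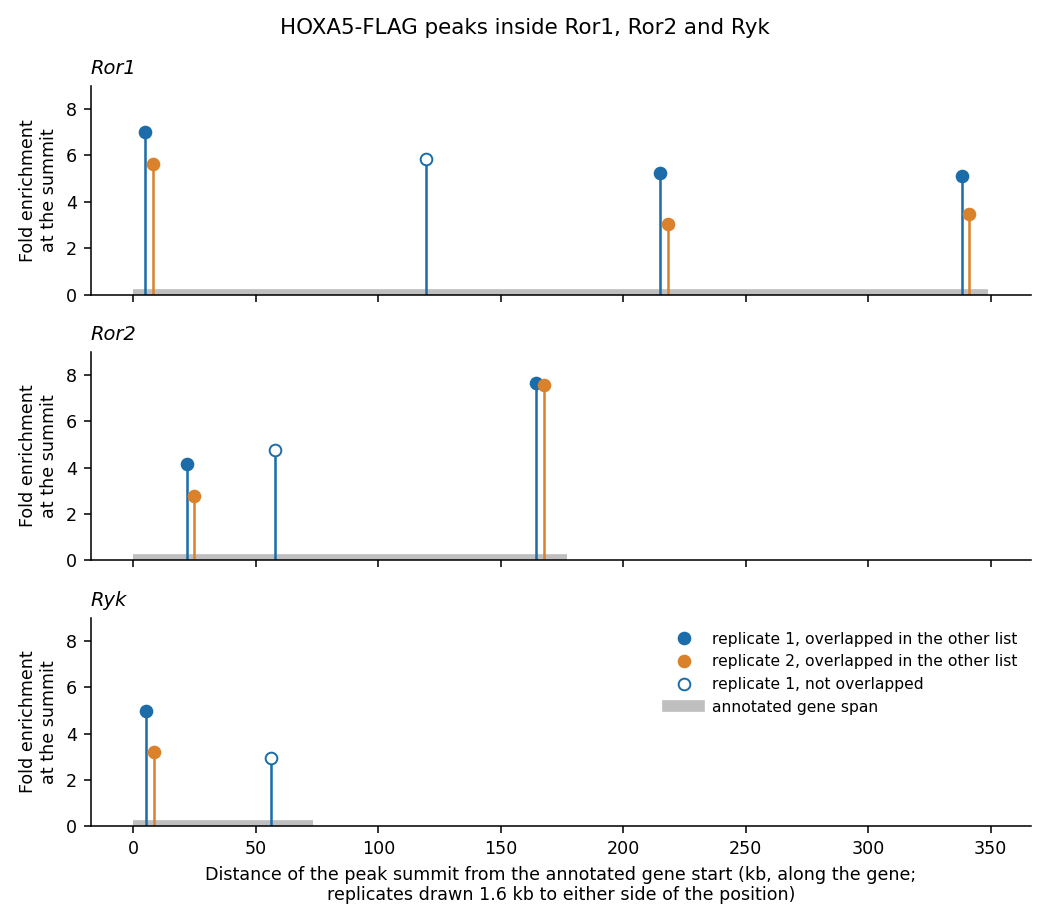
Peaks inside Ror1, Ror2 and Ryk, with distance of the summit from the annotated start in kb on the x axis and fold enrichment on the y axis, for replicate 1 (blue) and replicate 2 (orange). Filled points overlap a peak of the other list and open points do not; the strongest Ror1 pair (7.02 and 5.65) is near the start, and the strongest Ror2 pair (7.64 and 7.55) near the end.

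Ryk, whose product is a Wnt receptor with an inactive kinase domain, spans 73.4 kb on chromosome 9 (102834920 to 102908307, plus strand). Its shared peak, at 102841438 to 102841956 in replicate 1, lay 6.78 kb into the gene, with folds of 4.98 and 3.22 in replicates 1 and 2. The −log10 q was 25.1 and 6.99, and the summits were 9 bp apart. A replicate 1 peak with no partner, 57.9 kb from the start, had 2.96-fold enrichment, the lowest of the 11 replicate 1 peaks at these genes. The Ror1 and Ryk peaks nearest to the starts lay at like distances from them (6.31 and 6.78 kb), while the nearest in Ror2 was at 23.3 kb.

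Among the other receptors, Lrp6, one of the coreceptors of Frizzled, held a peak in replicate 1 alone. It lay 42.2 kb inside the nearer end of the gene (chromosome 6, 134488489 to 134488826), with 4.03-fold enrichment and a −log10 q of 12.7. Lrp5 had none. Of the 13 receptors other than Ror1 and Ror2, Ryk alone (7.69%, against 5.97% of all protein-coding genes) had a shared peak.

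Gene size differs between these receptors, and a larger gene can be assigned more peaks. The median span was 4.59 kb for the Frizzled genes, against 349 and 177 kb for Ror1 and Ror2. Summits would have been assigned to Ror1 and Ror2 from 684 kb in all, giving 0.731 shared peaks per 100 kb. The value was 0.0783 for the other 13 receptors (1277 kb) and 0.0824 over all protein-coding genes. Ryk, 1 of those 13, had 0.576 by itself, beside 0.714 for Ror1 and 0.759 for Ror2. The ligand gene Wnt10a, with 1 shared peak and 40.9 kb, had 2.44. Of the 1107 protein-coding genes that span 150 to 400 kb, 19.6% held a shared peak inside the span, 4.16% held at least 2 and 1.54% at least 3. Ror1 is among the 17 such genes with 3 or more and Ror2 among the 46 with 2 or more. Over all of these long genes the density was 0.109 per 100 kb. Ror1 and Ror2 were singled out with their peaks known, so this is a description and no test of them. In the span class of Ryk, Lrp5, Lrp6 and Fzd3 (50 to 150 kb), 6.21% of genes held a shared peak and 11.5% a replicate 1 peak. Fzd3 spans 70.0 kb and had no peak assigned in either list. The same was so for the ligand gene Wnt5b and the inhibitor gene Dkk2, which fall in this class too.

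**Figure D2:**
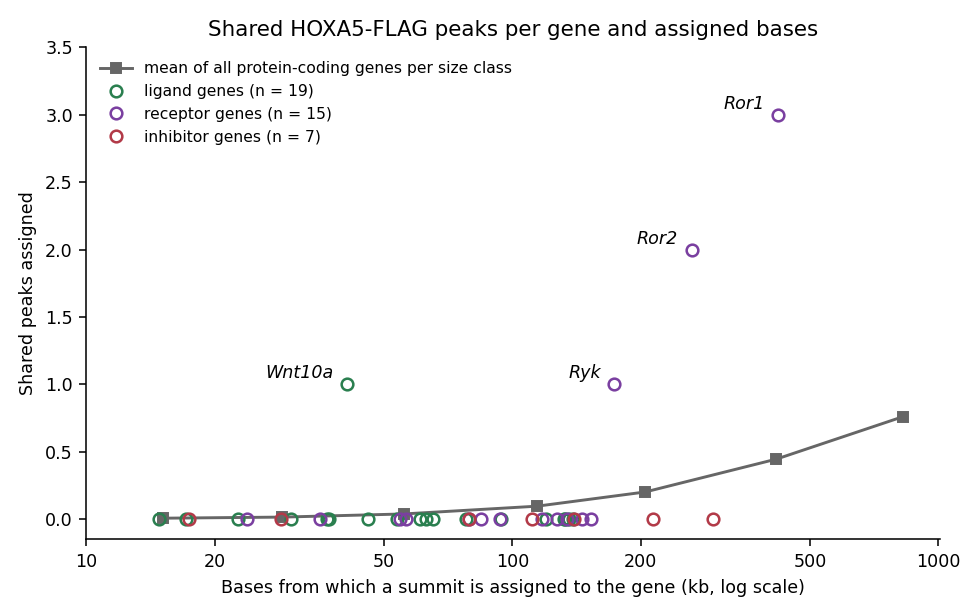
Shared peaks per gene (y axis) against the bases from which a summit is assigned to the gene (x axis, kb, log scale), for 19 ligand, 15 receptor and 7 inhibitor genes as open circles. Squares give the mean over all protein-coding genes of a size class, which is 0.445 at a median of 416 kb and 0.760 at 826 kb. Ror1, with 3, falls in the 416 kb class, where the highest count of a gene is 6. All but 4 of the 41 genes lie at 0.

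Of the ligands, Wnt10a, which acts in teeth, hair and skin, was the 1 of 19 with a shared peak (5.26%, 95% exact binomial interval 0.133 to 26.0). The ligand share was near the 5.97% of all protein-coding genes. The peak, at chromosome 1, 74808238 to 74808535 in replicate 1, lay outside the gene, 4.22 kb past its higher-coordinate end (Wnt10a, 74792019 to 74804176). Its fold enrichment was 5.35 in replicate 1 and 3.32 in replicate 2, with a −log10 q of 37.1 and 9.11 and summits 13 bp apart. Wnt6, the neighbouring ligand gene, lies 23.1 kb from the same summit. Of all protein-coding genes, 3.25% held a shared peak inside the span and 11.7% had a peak assigned in either list. No summit of either list lay inside a ligand gene, nor did any other ligand gene have a peak assigned to it. Those without one were Wnt1, Wnt2, Wnt2b, Wnt3, Wnt3a, Wnt4, Wnt5a, Wnt5b, Wnt6, Wnt7a, Wnt7b, Wnt8a, Wnt8b, Wnt9a, Wnt9b, Wnt10b, Wnt11 and Wnt16.

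Of the 7 inhibitor genes none had a shared peak (0%, exact binomial interval 0 to 41.0). Over all protein-coding genes the share was 5.97%, so 0 of 7 is not set apart from the rest. Sfrp2 had a peak in replicate 2 alone, 53.2 kb before the gene (chromosome 3, 83712349 to 83712652), with 3.94-fold enrichment and a −log10 q of 11.6. Sfrp1, Sfrp4, Sfrp5, Dkk1, Dkk2 and Dkk3 had none. Of the receptors 3 of 15 had a shared peak (20.0%, interval 4.33 to 48.1, against the same 5.97%). At Ror1 and Ror2 were 5 of the 6 shared peaks at receptors. The intervals treat genes as independent and cover counting error alone. Members of a gene family are not replicates of a condition, so the intervals do not compare the roles. Shared peaks per 100 kb of assigned bases were 0.0759 for ligands and 0 for inhibitors, which have 1318 and 884 kb. Over all protein-coding genes the density was 0.0824. The difference between ligands and inhibitors was not tested.

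Counted by list, peaks were assigned to 5 of the 41 genes in replicate 1 (12.2%, against 10.4% of all protein-coding genes) and to 5 in replicate 2 (12.2%, against 7.58%). A peak in either list was present at 6 (14.6%, against 11.7%). The shares of the whole set were thus near those of all genes, and the peaks gathered on few members: Ror1 and Ror2 had 7 of the 11 replicate 1 peaks and 5 of the 8 in replicate 2. At least 2 shared peaks were assigned to 0.923% of all protein-coding genes and at least 3 to 0.225%. Of the replicate 1 peaks at the 41 genes, 7 of 11 (63.6%) had a partner, against 51.2% of the whole list, and of the replicate 2 peaks 7 of 8 (87.5%), against 77.6%.

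In replicate 1 the folds of the member peaks ran from 2.96 (the 22.4th percentile of that list) to 7.64, with a median of 5.10, where the whole list had a median of 3.87. In replicate 2 they ran from 2.79 (the 27.0th percentile) to 7.55, with a median of 3.40, close to the median of 3.36 of that list. Folds above 10 occurred in neither list at these genes. The summits of the 7 shared peaks were a median of 9 bp apart (range 1 to 74), against 32 bp for all 2175. None of the 19 member peaks was longer than 804 bp. Peaks of the whole lists reached 45815 bp in replicate 1 and 85688 bp in replicate 2, so the summit gaps are not compared at like length.

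**Figure D3:**
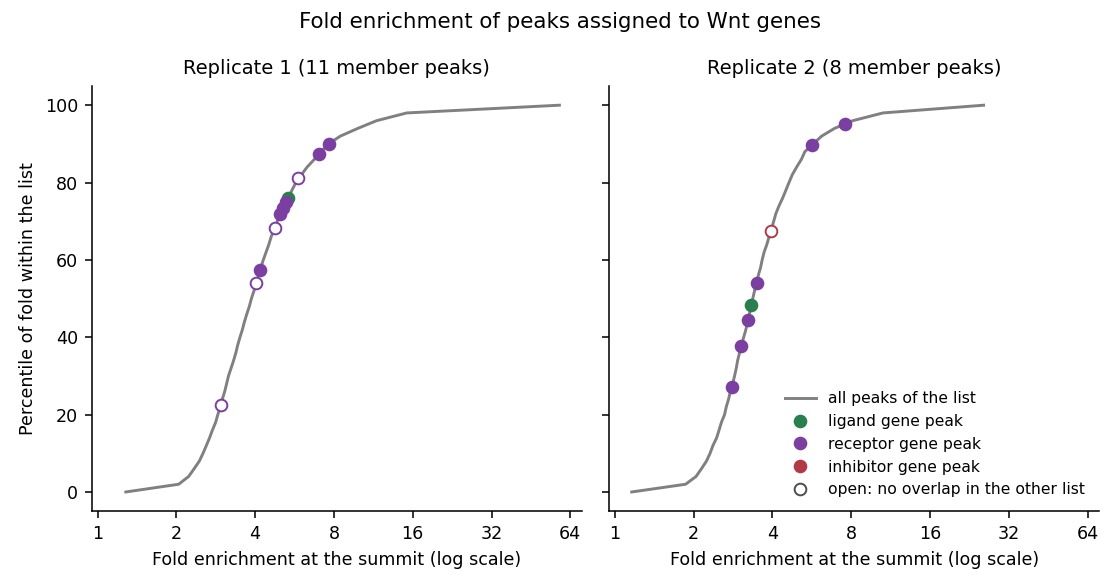
Fold enrichment (x axis, log scale) and its percentile within the list (y axis) for the 11 replicate 1 and 8 replicate 2 peaks at Wnt genes, coloured by role, on the curve of all peaks of the list. Replicate 1 points run from 2.96- to 7.64-fold and gather above the list median, while replicate 2 points lie on both sides of it; open points overlap no peak of the other list.

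Nearest-gene assignment leaves out peaks that lie close to a member but closer to, or inside, a neighbour. The genes in this paragraph and the next were picked after their values were seen. A shared peak lay within 100 kb of 12 of the 41 genes (29.3%) whatever its nearest gene, against 14.7% of all protein-coding genes. For 8 of the 12 it was assigned to a neighbour. For Wnt6 that neighbour was Wnt10a, itself a member, so the same peak counts for both genes. Wnt2, the mesenchymal ligand, was 43.0 kb from a peak assigned to St7 (chromosome 6, 17941922 to 17942642), whose folds were 4.41 and 3.22 in replicates 1 and 2. Wnt11, which acts outside the beta-catenin pathway, had 3 within reach: 2 assigned to Uvrag and 1, at 82.1 kb, to Thap12, with 15.3- and 6.43-fold enrichment. Sfrp5 was 53.8 kb from a peak of 13.7- and 8.11-fold assigned to Golga7b (chromosome 19, 42255855 to 42256296). Sfrp2 was 74.0 kb from one assigned to Tlr2 with 2.19 and 3.22. Fzd5, Fzd3 and Fzd1 had one at 61.4, 83.3 and 94.3 kb, assigned to Plekhm3, Zfp395 and Cdk14. The Golga7b peak exceeded every peak assigned to the 41 genes in both lists. Which gene a distal site acts on is not measured by a peak list.

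At the 100 kb limit, the farthest peak inside it was that of Sfrp2 at 53.2 kb. Just outside was a shared peak with Dkk2 as its nearest protein-coding gene, 120 kb away (chromosome 3, 131964999 to 131965404), inside the noncoding gene Gm29865. With a fold of 7.94 in replicate 1 and of 5.20 in replicate 2 it was above the Ror2 maximum in replicate 1 and below it in replicate 2. A replicate 1 peak 153 kb from Wnt5a, inside the noncoding gene Gm35164, had 4.03-fold enrichment and no partner. Wnt5a encodes a ligand of ROR1, ROR2 and RYK, and its nearest shared peak was 446 kb away.

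Over all members, the nearest shared peak lay a median of 353 kb from the gene, against 503 kb for all protein-coding genes. By role the median was 285 kb for receptors, 446 kb for ligands and 289 kb for inhibitors, and the farthest member of each role was at 1317, 1312 and 1191 kb in that order. Among receptors the order ran from Ryk, Ror2 and Ror1, with summits inside the gene, to Fzd6.

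**Figure D4:**
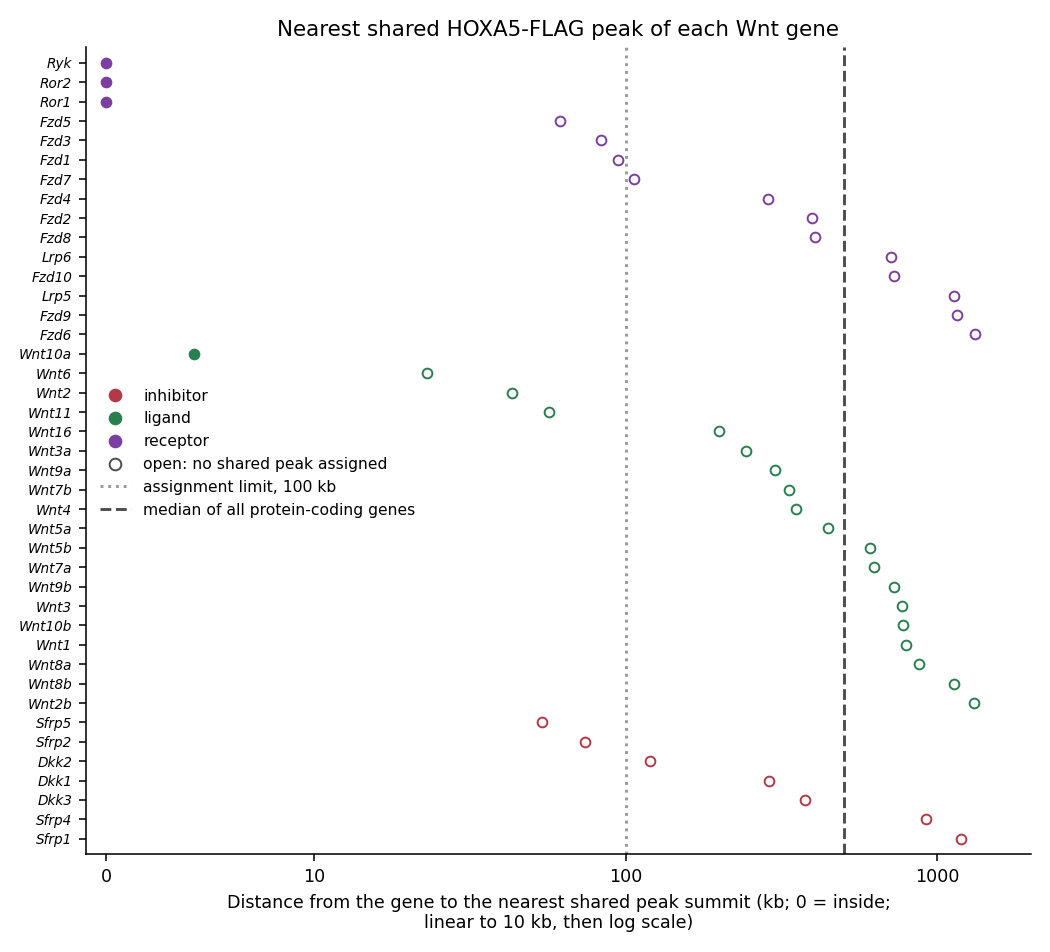
Distance in kb from each of the 41 genes to the nearest shared peak summit, by role, where 0 is inside the gene and the axis is logarithmic beyond 10 kb. Filled points have a shared peak assigned to them; 12 genes lie left of the 100 kb line, and the dashed line is the median of all protein-coding genes, 503 kb.

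For the rest of the pathway, 95 further genes were listed by role, and 6 of them (6.32%) had a shared peak, near the 5.97% of all protein-coding genes. None of 15 secreted modulators and none of 20 cytoplasmic genes of the beta-catenin pathway had one assigned. A shared peak lay within 100 kb of 17 of the 95 (17.9%) whatever its nearest gene, against 14.7% of all protein-coding genes. Dvl1, a cytoplasmic mediator of Frizzled signals picked here after its values were seen, lay 0.239 kb from a shared summit inside its neighbour Tas1r3 (chromosome 4, 155859349 to 155859703), with folds of 8.06 and 5.64 in replicates 1 and 2. Of 17 genes for coreceptors, receptor turnover and Wnt secretion, 2 had a shared peak assigned. Adgra2, the coreceptor of WNT7 signals in vessels, held a peak with folds of 8.25 and 4.00 in replicates 1 and 2 (chromosome 8, 27105060 to 27105507). The glypican gene Gpc6 held one of 2.71- and 4.56-fold.

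Of 13 genes of the nuclear part 2 had a shared peak (15.4%, against 5.97% of all protein-coding genes), both for TLE corepressors, which bind TCF proteins. Tle4 held one of 8.07- and 6.12-fold (chromosome 19, 14566739 to 14567145), and Tle3 had one 56.8 kb away with 3.70 and 2.98. The related genes Tle1, Tle2 and Tle5 had no peak assigned in either list. Of 30 genes for planar polarity and other routes, 2 had a shared peak (6.67%, against the same 5.97%). Vangl1, a core planar polarity gene, had one 27.2 kb away with 4.18- and 4.19-fold enrichment (chromosome 3, 102231842 to 102232219), and Nfatc3, a calcium-dependent transcription factor gene, held one of 6.95 and 2.41. Each of the 6 genes had 1 shared peak, and the list as a whole had 0.0439 per 100 kb of assigned bases.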

How the data were processed

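HOXA5-FLAG ChIP-seq peak lists of 2 immunoprecipitates from E15.5 lung were used. The submitters' processing notes name mm10, MACS3 3.0.1, Bowtie2 2.5.2, Trim Galore, deepTools, bedtools 2.31.0, SAMtools 1.18 and FastQC 0.12.1. Steps, settings, control and region filters are not stated in the labels, so a change in any of them could add or remove weak peaks. Peaks were called per replicate. The authors' deposited fold enrichment is a ratio, and their deposited −log10 p and −log10 q, like it, belong to the summit of a peak in its own list. The deposited score, which follows −log10 q, was not used. No −log10 q was below 2.01. The lists hold no counts, so depth is unknown; a deeper library would pass more peaks. The replicate number in the names of the replicate 2 peaks differs from the label, which was followed.

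Genes came from a RefSeq table of GRCm38.p6, which gives spans but no exons, so introns and exons were not told apart; strand came from the RefSeq promoter table. Of the genes on the chromosomes, 340 with a start below 3 Mb (Y excepted) were left out as probable scaffold positions, and 49603 remained. All 41 members and the 95 other pathway genes matched by symbol. Chains of overlapping peaks counted as 1 shared peak, placed at the replicate 1 summit with the higher −log10 q. Promoter letters were searched in the 250 bases before each start, leaving out 10 windows with unknown bases. Pairing, assignment and assigned bases were checked on simulated peaks. Named genes were every member (those with a peak with values) and other pathway genes with a shared peak; exceptions are marked in the text. The members and lists were chosen with earlier results of these data known. Python 3.11.15, pandas 2.3.3, numpy 2.4.6, scipy 1.17.1 and networkx 3.6.1 were used. For each of 6 counts 10 alternatives were run, on overlap, −log10 q, peak length, distance, gene class and replicate.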

Additional observations from a re-analysis of the deposited data

How the results depend on the processing

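Ror1, Ror2 and Ryk had a shared peak, or a peak where 1 list was used, under each of the 10 alternatives, and Wnt10a under all but summits inside the span, where 0 ligand genes remained. The count of members with a peak ranged from 3 to 5, of receptors from 3 to 4, and of peaks at Ror1 and Ror2 from 4 to 7. The share of all protein-coding genes moved as well, from 3.25% inside the span to 10.4% without replicate 2. Members were at 7.32% and 12.2% under those settings. A −log10 q of at least 5 or reciprocal overlap of at least 50% left 1 shared peak at Ror2. Inhibitors rose to 1 with a limit of 500 kb (Dkk2), and ranged from 0 to 1 without a replicate (Sfrp2, without replicate 1). Other pathway genes, 6 in the report, ranged from 4 to 15 over all alternatives. They fell to 4 within 10 kb, inside the span and with genes of any class, losing Tle3 and Vangl1, and ranged from 7 to 15 without a replicate; the 15 without replicate 2 are set against 10.4% of all protein-coding genes. No paired analysis was possible because the inputs that share the replicate numbers were not analysed here, and there is 1 group. Depth is unknown, so the lack of a peak at a Wnt gene may be a matter of detection.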

Other observations

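Rspo2, which encodes a secreted enhancer of Wnt signalling needed for lung growth, held 3 replicate 1 peaks and none in replicate 2, and was picked after its values were seen. The peaks, on chromosome 15, had 4.89-, 7.20- and 2.74-fold enrichment with a −log10 q of 19.5, 38.7 and 3.89. Of 95 other pathway genes 15 had a replicate 1 peak (15.8%, against 10.4% of all protein-coding genes) and 7 a replicate 2 peak (7.37%, against 7.58%).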
